A study of Homo sapiens with 6 samples.

Results

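The RAB small GTPases were taken as every row of the count files whose symbol is RAB followed by a number and at most 1 letter from A to D. This gave 63 genes of the 59050 symbols in each file. Within the family, members were picked by symbol alone, but the family itself was chosen with earlier results of these data known. The 4 members RAB25, RAB17, RAB11A and RAB27B were set apart as epithelial with the results of this same comparison known, so their values are given as a description, with no test. The other 59 members were read from a test fitted across all genes, and 52 of them had enough reads to be tested. RAB5B was not analysed here.

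The data are RNA-seq read counts from H2122, a human lung cancer cell line, with 3 libraries from SMARCA4 knockout (KO) cells and 3 from parental (WT) cells. All 6 libraries came from vehicle-treated cells, and the product of SMARCA4 is the motor subunit of SWI/SNF complexes, which move nucleosomes. Each library held 55120937 to 59917980 reads assigned to genes, so 3 counts in a library, taken as the limit of detection, are 0.0501 to 0.0544 per 1e6 gene reads. Levels are given as CPM, counts per 1e6 gene reads with the library size scaled by TMM factors. No label states that the replicates are separate cultures, so the p-values reflect the spread among these libraries alone, and that spread can be technical. The titles carry a further number, 1 in all 3 knockout libraries and 1, 3 and 6 in the parental ones, whose meaning is not stated. Were it a clone number, the knockout would be 1 clone, whose own traits and the loss of SMARCA4 cannot be told apart.

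Rab proteins are small GTPases that mark the membranes of the secretory and endocytic pathways. Each one cycles between an active, GTP-bound form on a membrane and an inactive, GDP-bound form held in the cytosol by GDI proteins. Exchange factors, often with a DENN domain, switch a Rab on, GTPase-activating proteins with a TBC domain switch it off, and the active form recruits effectors such as tethers and myosin motors. Most members serve routes that every cell uses, while others are known from polarised epithelia, secretory cells, melanocytes or neurons.

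SMARCA4 itself stood at 21.6 ± 2.93 CPM (SD, n = 3) in the knockout against 260.3 ± 65.2 CPM in parental libraries. Over all 17809 genes tested, 27.6% were called at an adjusted p under 0.05 (edgeR quasi-likelihood test), with 13.3% higher and 14.3% lower in the knockout. On the second principal component (19.0% of the variance) parental replicate 3 lay far from the remaining 5 libraries. Of the 56 tested members, 18 stood more than 1.5-fold above or below the mean of parental replicates 1 and 2 in that library, against 46.4% of all genes tested. Between parental replicates 1 and 2 no member differed by as much, against 1498 of the 17809 genes tested. Counts are therefore given with and without that library. Without it, 61.6% of genes were called, 30.8% in each direction, which is the background for all counts without it.

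Of 15 epithelial markers, 14 fell and none rose, where 14.3% of all genes fell. Their median log2 fold change (knockout minus parental) was -4.18. Their summed level was 3241 to 3509 CPM in the knockout against 8750 to 9047 CPM in the parental libraries. OVOL1 passed the filter on low reads through the parental libraries alone, the group where it was high. Of the 14 markers above the filter in all 6 libraries, 13 fell, with a median of -3.25, where 12.7% of such genes fell. KRT18, which encodes a keratin of simple epithelia, was the marker not called (-0.42, adjusted p = 0.0962). Without parental replicate 3 all 15 markers fell, where 30.8% of genes did. The KRT8 call (adjusted p = 0.0467) was lost without any one library other than parental replicate 3. Of 7 mesenchymal markers tested, VIM, ZEB1 and COL3A1 rose and FN1 and COL1A1 fell, where 27.6% of all genes were called. VIM and COL3A1 passed the filter through the knockout libraries alone, the group where they were high. Of the 5 above it in all 6 libraries, 1 rose and 2 fell. Without parental replicate 3, 3 of 8 rose and 4 fell, where 30.8% of genes went each way. The falls then included CDH2 (-3.05) and SNAI2 (-2.29). The summed level of the mesenchymal list was 122.5 to 125.7 CPM in the knockout against 127.1 to 161.2 CPM in the parental group, and TWIST1 had no read in any library. Leaving out any one knockout library removed the calls of FN1 and COL1A1. The 6 fibroblast markers summed to 25.4 to 30.2 CPM in the knockout against 0.51 to 0.703 CPM in the parental group, mostly from LUM, with THY1 at 0 throughout. Endothelial markers summed to at most 1.77 CPM and haematopoietic ones to at most 1.86 CPM in any library, and PTPRC had no read. The part of these programmes in the RAB values was not tested, and in bulk RNA fewer cells of a type and less RNA per cell cannot be told apart.

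The 4 members named as epithelial did not share one direction. RAB25 was 219.7-fold and RAB17 28.5-fold lower in the knockout libraries, RAB11A was 1.59-fold lower, and RAB27B was 2.16-fold higher. As background, RAB11A is known as a Rab of nearly all cells. The plot of CPM by library shows the 4 beside their closest relatives.

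**Figure D1:**
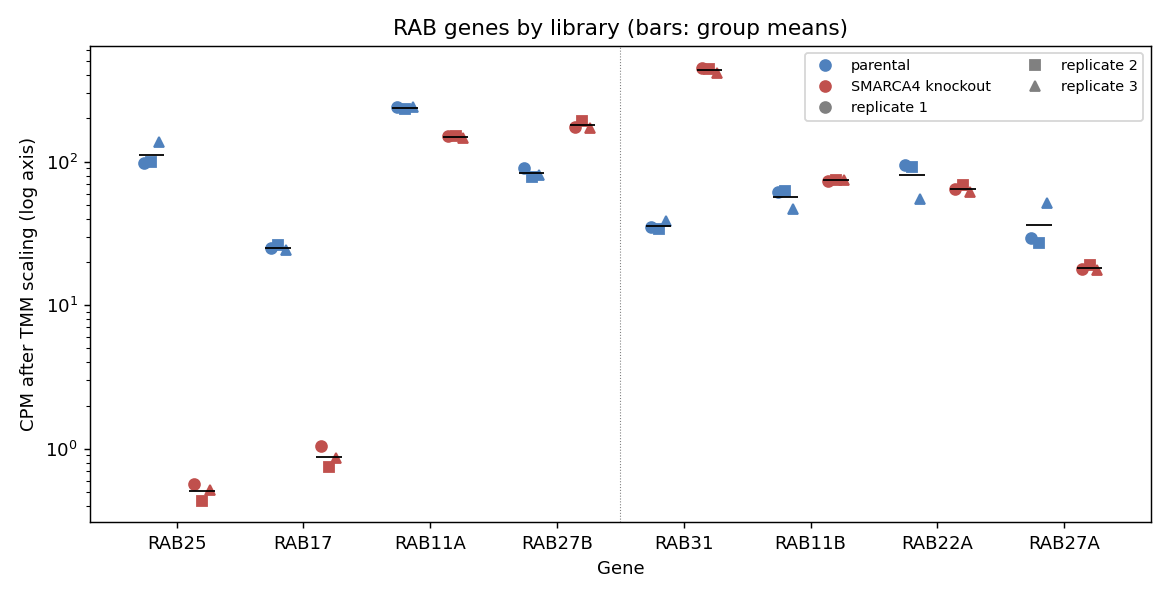
CPM after TMM scaling on a log axis for 8 RAB genes, parental libraries in blue and knockout libraries in red, marker shape giving the replicate and black bars the group means. RAB25 and RAB17 lie near or below 1 CPM in all 3 knockout libraries, RAB31 lies above 400 CPM there, and parental replicate 3 departs from its group in RAB22A and RAB27A.

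RAB25 (chromosome 1, 156061160 to 156070514 on GRCh38, plus strand) belongs to the RAB11 group and works in recycling to the apical surface of epithelial cells. Its reads numbered 32, 24 and 31 in the knockout libraries and 5591, 5941 and 7796 in the parental ones. Scaled, this was 0.566, 0.436 and 0.513 CPM against 97.9, 99.5 and 137 CPM. The groups were far apart, with parental replicate 3 the highest library. The log2 difference was -7.78, a 219.7-fold lower level, and -7.65 without parental replicate 3. With 24 to 32 reads against a limit of 3, RAB25 was still detected at a low level in each knockout library.

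RAB17 (chromosome 2, 237574322 to 237601614, minus strand) is known from polarised epithelia, where it acts in apical recycling and transcytosis. It measured 1.04, 0.744 and 0.861 CPM in the knockout against 25.0, 26.4 and 24.3 CPM in the parental libraries. The 3 parental libraries lay close together, parental replicate 3 included. The log2 difference was -4.83, a 28.5-fold lower level, and -4.91 without parental replicate 3.

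The promoters of these 2 genes and of RAB31, the one riser whose call held in all 14 fits run, are shown as RefSeq gives them on GRCh38.p14, from 250 bases before the start in RefSeq to 50 after. For RAB17, RAB31 and RAB11A that start lies inside the gene span given here from GENCODE, so other starts of these genes can fall outside the windows. Capitals mark CACCTG or its reverse complement CAGGTG, the E-box that ZEB and SNAI factors bind.

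RAB25, chr1:156060910-156061209, plus strand: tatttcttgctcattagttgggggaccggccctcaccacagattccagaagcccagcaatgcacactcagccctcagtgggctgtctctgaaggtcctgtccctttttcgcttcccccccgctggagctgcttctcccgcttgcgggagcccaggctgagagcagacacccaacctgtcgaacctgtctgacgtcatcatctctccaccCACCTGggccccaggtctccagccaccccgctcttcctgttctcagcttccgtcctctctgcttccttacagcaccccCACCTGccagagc

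RAB17, chr2:237590685-237590984, minus strand: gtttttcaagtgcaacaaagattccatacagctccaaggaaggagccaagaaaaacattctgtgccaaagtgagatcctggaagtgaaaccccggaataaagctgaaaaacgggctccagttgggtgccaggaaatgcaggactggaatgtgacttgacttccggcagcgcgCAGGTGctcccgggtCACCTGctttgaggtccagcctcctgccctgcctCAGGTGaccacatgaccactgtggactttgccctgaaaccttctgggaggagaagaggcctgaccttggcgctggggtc

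RAB31, chr18:9708051-9708350, plus strand: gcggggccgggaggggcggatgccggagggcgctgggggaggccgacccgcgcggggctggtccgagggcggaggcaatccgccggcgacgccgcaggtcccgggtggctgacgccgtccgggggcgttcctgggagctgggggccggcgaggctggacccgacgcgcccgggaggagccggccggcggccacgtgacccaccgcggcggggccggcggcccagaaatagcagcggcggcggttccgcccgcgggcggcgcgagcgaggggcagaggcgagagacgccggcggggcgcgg

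RAB25 held 2 such matches, at -41 and 37 counted from 0 at the start, and RAB17 held 3, at -78, -63 and -29. RAB31, RAB11A and RAB27B held none in this window. A promoter was found for 49 of the 63 members, and 8 of them (16.3%) held at least 1 CACCTG on either strand, against 20.6% of all 35116 promoters. With RAB17, RAB19 also held 3 matches, and 0.635% of all promoters held 3 or more. The other members with a match were RAB18, RAB22A, RAB3B, RAB4A and RAB5C. RAB34 and RAB3B held TGANTCA, the AP-1 motif (7.71% of all promoters), and no member held AACCNGTT, the GRHL motif (1.73%). ZEB1 rose from 1.95 ± 0.867 to 41.9 ± 2.18 CPM in these libraries (adjusted p = 0.000557). SNAI2 stood at 57.5, 58.2 and 2.90 CPM in the parental and 12.7, 12.3 and 11.6 CPM in the knockout libraries and was not called (-1.69, adjusted p = 0.235), but it fell by 2.29 on the log2 scale without parental replicate 3 (adjusted p = 4.81e-12). ZEB2, with 7 to 20 reads a library, was not tested. GRHL2 fell from 84.0 ± 1.03 to 0.293 ± 0.109 CPM (adjusted p = 2.34e-05). A match is a run of letters, and no binding was measured. The promoters also differed in CG dinucleotides, with 9 in RAB25 and 7 in RAB17 but 52 in RAB31, where the median was 25 over the family and 14 over all promoters.

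RAB11A (chromosome 15, 65726054 to 65891991, plus strand) marks the recycling endosome. It measured 152, 150.3 and 146 CPM in the knockout against 239, 232 and 240.4 CPM in the parental libraries. All 3 knockout libraries lay below all 3 parental ones, with a narrow spread in each group. The log2 difference was -0.67. RAB27B (chromosome 18, 54717860 to 54895516, plus strand) acts in the docking of secretory granules and exosome-bearing compartments at the plasma membrane. It measured 175, 191 and 172 CPM in the knockout against 89.9, 78.3 and 81.1 CPM in the parental libraries, a log2 difference of 1.11. All knockout libraries were higher.

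Per length, RAB25 made up a large part of the RAB11 group in parental cells and almost none of it in the knockout. Levels of different genes were compared as CPM per kb of the union of annotated exons. On that scale the share of RAB25 in the sum of RAB11A, RAB11B and RAB25 was 46.3%, 47.0% and 56.8% in the parental libraries and 0.586%, 0.451% and 0.539% in the knockout libraries. The sum itself went from 130.3 ± 10.1 to 56.6 ± 0.447 CPM per kb. RAB11B, a recycling Rab close to RAB11A, was 74.1 CPM on average in the knockout against 56.8 CPM in the parental group and was not called (0.38, adjusted p = 0.0772), although it rose by 0.22 without parental replicate 3 (adjusted p = 0.00155). Its share of the group went from 17.9 ± 3.86% to 53.1 ± 0.674%.

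In the RAB27 pair, the balance moved towards RAB27B. RAB27A, which serves lysosome-related organelles and regulated secretion, fell from 29.6, 27.0 and 51.2 CPM in the parental libraries to 17.9, 19.1 and 17.7 CPM in the knockout (-0.98, SE 0.26, adjusted p = 0.0336). Parental replicate 3 was well above the other parental libraries, and without it the difference was -0.68 (adjusted p = 1.59e-06). The share of RAB27B in the pair was 64.2 ± 8.49% in the parental and 88.1 ± 0.185% in the knockout libraries.

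**Figure D2:**
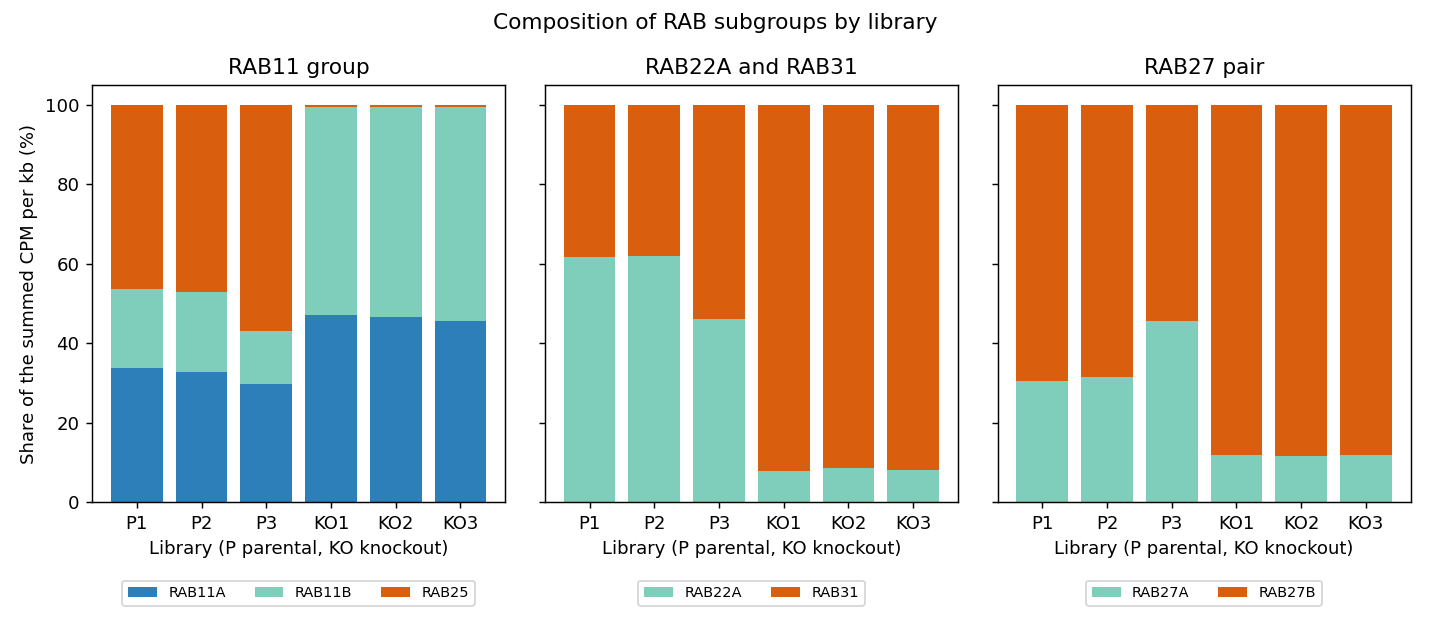
Stacked bars of each gene's share (%) of the summed CPM per kb of its subgroup in the 6 libraries, P1 to P3 parental and KO1 to KO3 knockout. RAB25 takes 46.3% to 56.8% of the RAB11 group in parental libraries and under 1% in knockout ones, and RAB31 exceeds 91% of its pair in each knockout library.

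Among the 52 other members tested, 4 rose (RAB31, RAB39A, RAB2B and RAB4A), 17 fell and 31 were not called, where 27.6% of all genes were called. Their median log2 fold change was -0.25, and that of all genes tested was 0.02. This count includes members that passed the filter on low reads through a single group, 6 through the parental libraries (RAB3B, RAB3C, RAB9B, RAB19, RAB33A and RAB37) and 2 through the knockout (RAB7B and RAB39A). Among the 44 members above the filter level in all 6 libraries, 3 rose and 11 fell, where 25.4% of such genes were called, 12.7% in each direction. Without parental replicate 3, 10 of the 52 rose and 30 fell, and the median was -0.28. In 36 of the 52 no library of one group reached into the range of the other, against 49.8% of all genes tested.

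The calls of RAB1B, RAB3B, RAB20, RAB31 and RAB37 held in all 14 fits run, and that of RAB19 in every fit but the one with a filter of 1 CPM, which did not test it. Of these, RAB3B, RAB19 and RAB37 passed the filter through the parental libraries alone, the group where they were high. The calls of RAB2B, RAB3C, RAB3D, RAB4A, RAB10, RAB18, RAB27A, RAB35, RAB39A and RAB40C were lost without any one of the knockout libraries, when fewer samples remained. RAB2A lost its call without knockout replicate 1 or 3, RAB9B without knockout replicate 2 or 3, RAB15 and RAB33A without knockout replicate 1, and RAB36 without knockout replicate 2. Leaving out parental replicate 1 removed the calls of RAB3C, RAB4A, RAB10, RAB18, RAB39A and RAB40C, and leaving out parental replicate 2 removed these and those of RAB2B and RAB35. Of the 52 members, 8 or 9 were called without a knockout library, 15 without parental replicate 1 and 14 without parental replicate 2. Over all genes, 2692 to 2785 of the 18313 to 18442 tested were called without a knockout library. The calls over all genes were 3594 of 18303 without parental replicate 1 and 3783 of 18247 without parental replicate 2. The plot of log2 fold changes gives each tested member with its standard error.

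**Figure D3:**
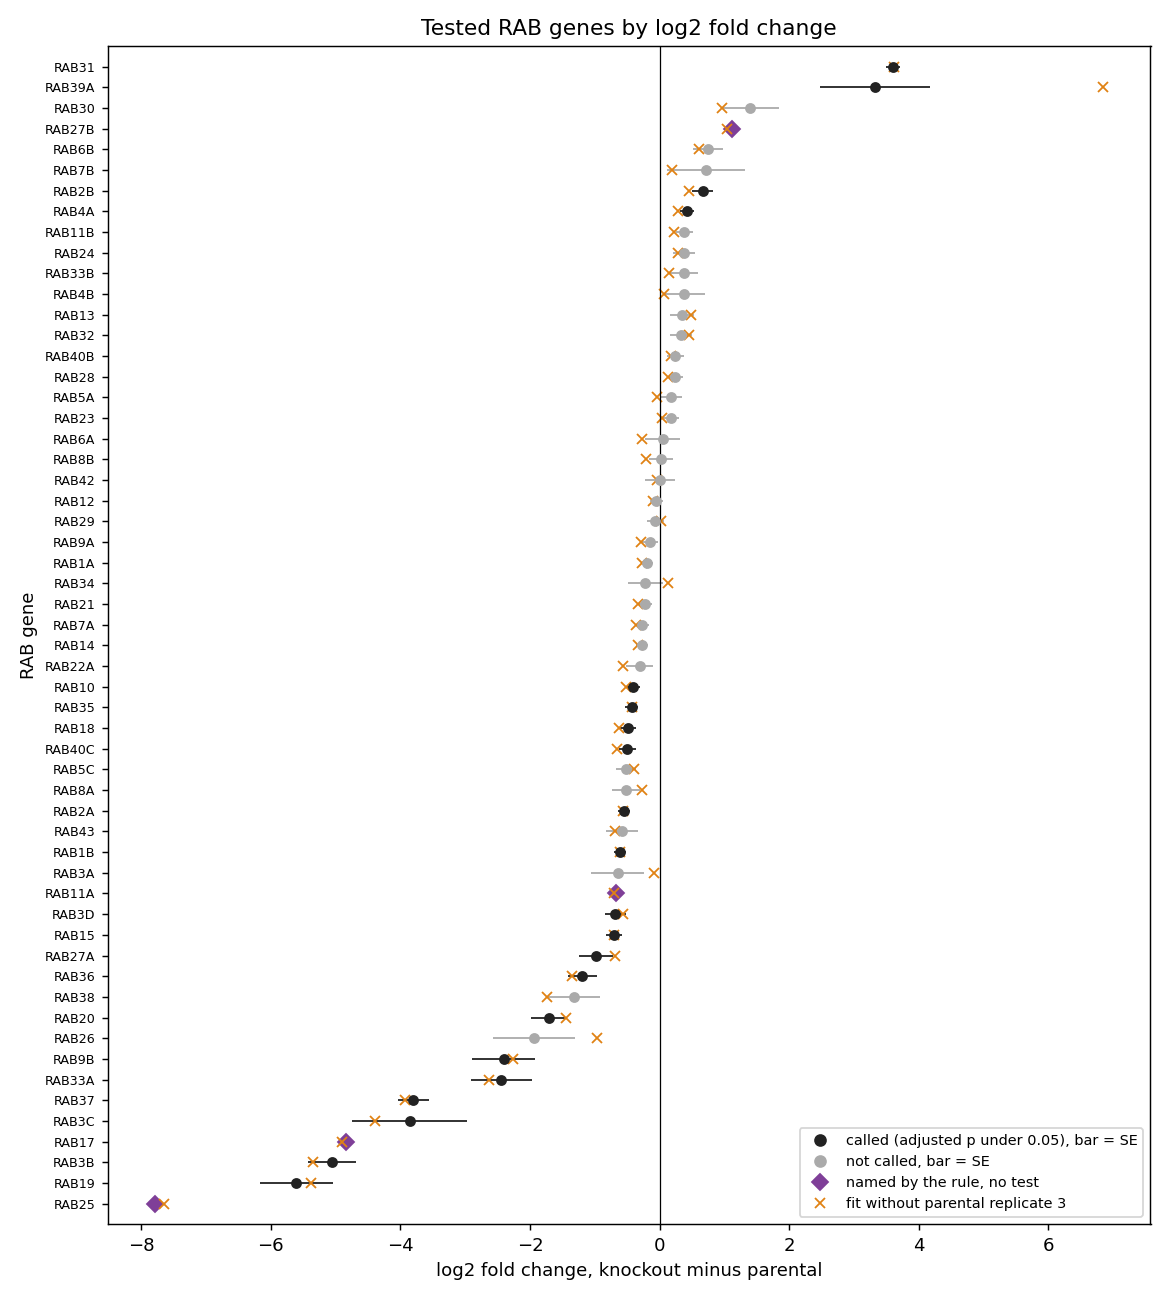
log2 fold change (knockout minus parental) of the 56 tested RAB genes, sorted. Black points passed an adjusted p of 0.05, grey points did not, bars are standard errors, purple diamonds are the 4 members with no test and orange crosses come from the fit without parental replicate 3. RAB31 lies at 3.60 and RAB25 at -7.78, and the cross of RAB39A rests on 0 parental reads.

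RAB31 was the member with the largest absolute difference in CPM. It is also called RAB22B, acts on early endosomes and in transport from the trans-Golgi network, and is the closest relative of RAB22A. RAB31 (chromosome 18, 9708165 to 9862551, plus strand) measured 453, 442 and 417 CPM in the knockout libraries and 35.1, 34.0 and 38.7 CPM in the parental ones. The groups did not overlap, and the gap was far larger than the spread in either. It rose 12.2-fold (3.60, SE 0.11, adjusted p = 1.85e-05), with values from 3.56 to 3.65 when single libraries were left out. RAB22A, which serves early endosomes, measured 64.4, 68.5 and 62.0 CPM in the knockout against 94.2, 92.1 and 55.1 CPM in the parental libraries, where parental replicate 3 lay below the knockout range (-0.31, adjusted p = 0.34). Without that library it changed by -0.57 (adjusted p = 8.15e-07). RAB31 held 43.4 ± 9.09% of the summed CPM per kb of this pair in the parental group and 91.8 ± 0.326% in the knockout.

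Across the whole family per length, RAB31 went from 0.676 ± 0.0469% of the summed CPM per kb in the parental libraries to 9.77 ± 0.11% in the knockout. RAB25 went from 6.9 ± 1.4% to 0.0372 ± 0.00492%. The highest member in both groups was RAB10, at 14.6 ± 1.14% and 13.0 ± 0.332%. In the knockout, RAB31, RAB7A and RAB1B followed at 9.77%, 9.75% and 9.72%, values that lie within their spreads. The sum over the family was 951.7 ± 17.6 CPM per kb in the parental and 800.5 ± 26.7 in the knockout libraries.

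The 14 housekeeping members in the files, those that serve routes of all cells, differed by less than 2-fold. None rose, 5 fell and 9 were not called, where 14.3% of all genes fell, with log2 fold changes from -0.61 (RAB1B) to 0.38 (RAB11B) and a median of -0.34, against 0.02 over all genes. The number that fell was 1 or 2 of 14 without a knockout library, 3 without parental replicate 1 and 2 without parental replicate 2. Over all genes, 1471 to 1500 of the 18313 to 18442 tested fell without a knockout library. There were 1952 of 18303 that fell without parental replicate 1 and 2064 of 18247 without parental replicate 2. Under RLE factors the median was -0.39, and under upper-quartile factors -0.30, so its sign did not turn with the scaling. Without parental replicate 3, 12 fell, RAB11B rose and RAB5A was not called, with a median of -0.35. The 3 with the highest level per length were RAB10, RAB1B and RAB7A. RAB10, which carries membrane proteins from the Golgi and endosomes to the surface, measured 391, 391 and 353 CPM in the knockout against 557, 488 and 467 CPM in the parental libraries. The groups did not overlap, and the difference of -0.41 passed narrowly (adjusted p = 0.0444). RAB1B, needed for transport from the endoplasmic reticulum to the Golgi, fell from 233, 226 and 257 CPM to 161, 156 and 152 CPM (-0.61, adjusted p = 0.00583). RAB7A, the Rab of late endosomes and lysosomes, measured 216, 218 and 202 CPM in the knockout against 265, 265 and 236 CPM in the parental libraries, which did not overlap, but was not called (-0.27, adjusted p = 0.104).

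Among the ER, Golgi and early secretory members, RAB2B rose, RAB1B, RAB2A, RAB18, RAB19 and RAB33A fell, and 6 were not called, where 27.6% of all genes were called. Of the 10 above the filter in all 6 libraries, which leaves out RAB19 and RAB33A, 1 rose and 3 fell, where 25.4% of such genes were called. RAB2A, of the same early route as RAB1B, changed by -0.55 (adjusted p = 0.00797), and its relative RAB2B by 0.66 (adjusted p = 0.0307), from 19.5, 19.0 and 13.3 CPM to 27.6, 26.4 and 27.9 CPM. RAB18, which acts on the ER and lipid droplets, changed by -0.49 (adjusted p = 0.0262). RAB19 was covered by 31, 34 and 51 parental reads against 1, 0 and 1 in the knockout. Its parental level was 57.5 times the knockout level (95% counting interval 15.6 to 480.03, which covers counting error only), and its call had an adjusted p = 0.000967. RAB33A, a Golgi Rab, fell from 17, 21 and 13 reads to 3, 1 and 5 reads (-2.44, adjusted p = 0.0116).

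The values of 2 Golgi members turned on parental replicate 3. RAB6A, which serves traffic within and out of the Golgi, measured 176, 179 and 164 CPM in the knockout against 202, 201.4 and 99.0 CPM in the parental libraries. Its difference was 0.05 (adjusted p = 0.921) over all 6 libraries and -0.27 (adjusted p = 0.000194) without parental replicate 3. RAB30 measured 19.7, 19.8 and 18.4 CPM in the knockout against 9.70, 9.44 and 2.80 CPM in the parental libraries. The groups did not overlap, yet it was not called (1.40, adjusted p = 0.0647), and it rose by 0.96 without that library (adjusted p = 1.44e-07). RAB6B changed by 0.74 (adjusted p = 0.055), and RAB1A, RAB33B and RAB43 were not called either.

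Among early and recycling endosome members, RAB31 and RAB4A rose, RAB15 and RAB35 fell, and 7 of 11 were not called, where 27.6% of all genes were called. RAB4A, of fast recycling from early endosomes, rose from 47.2, 44.6 and 38.1 CPM to 60.7, 57.6 and 55.9 CPM (0.42, adjusted p = 0.0363), a call lost with RLE factors. RAB15 fell from 18.0, 20.3 and 21.4 CPM to 11.2, 12.8 and 12.6 CPM (-0.70, adjusted p = 0.00806). RAB35, which acts in recycling to the plasma membrane, changed by -0.43 (adjusted p = 0.0227). RAB5A and RAB5C, Rabs of early endosome fusion, differed in parental replicate 3 in opposite directions. RAB5A stood at 93.0, 88.4 and 61.0 CPM and RAB5C at 39.6, 38.6 and 54.3 CPM in the parental libraries. In the knockout they measured 90.6, 95.5 and 88.2 CPM and 31.9, 30.9 and 29.7 CPM, and neither was called (adjusted p = 0.494 and 0.0532).

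Among late endosome, lysosome, phagosome and autophagy members, RAB39A rose, RAB9B, RAB20 and RAB36 fell, and 10 of 14 were not called, a share of calls close to the 27.6% over all genes. Of the 11 above the filter in all 6 libraries, which leaves out RAB39A, RAB9B and RAB7B, none rose and 2 fell. Of such genes 12.7% went each way. RAB20, of phagosomes and endosomes, fell from 6.44, 5.46 and 10.3 CPM to 2.48, 2.11 and 2.20 CPM (-1.71, SE 0.27, adjusted p = 0.00572). The spread was in the parental group, where parental replicate 3 was the highest. RAB36 fell from 1.91, 1.96 and 1.49 CPM to 0.902, 0.835 and 0.613 CPM (-1.19, adjusted p = 0.0116). RAB9B rested on 10, 13 and 16 parental reads against 4, 1 and 2 in the knockout (-2.40, adjusted p = 0.0139), and its log2 value ranged from -3.01 to -2.07 with single libraries left out. RAB39A was covered by 13, 13 and 17 knockout reads against 0, 0 and 4 parental ones (3.32, SE 0.85, adjusted p = 0.0315). Without parental replicate 3, which held all 4 reads, its level was at least 4.85-fold higher in the knockout, set against 3 counts in each remaining parental library.

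RAB38, known with RAB32 from the biogenesis of melanosomes, lamellar bodies and other lysosome-related organelles, measured 41.1, 40.5 and 13.8 CPM in the parental libraries and 13.3, 12.5 and 12.3 CPM in the knockout. The lowest parental library thus lay just above the knockout range, and the difference was not called (-1.33, adjusted p = 0.0556). Without parental replicate 3, RAB38 fell by 1.73 on the log2 scale (adjusted p = 1.07e-10). RAB32 stood at 8.69, 8.82 and 11.9 CPM in the parental and 13.5, 12.1 and 11.4 CPM in the knockout libraries and was not called (0.34, adjusted p = 0.196). It rose by 0.45 without parental replicate 3 (adjusted p = 0.000617). The share of RAB38 in the summed CPM per kb of the pair was 79.7% and 79.2% in parental replicates 1 and 2, 49.2% in parental replicate 3, and 45.1% to 47.1% in the knockout. RAB34, which places lysosomes near the nucleus and acts in ciliogenesis, stood at 77.6 and 78.7 CPM in 2 parental libraries and 151 CPM in parental replicate 3, with 85.6 to 89.7 CPM in the knockout. Its difference was -0.22 (adjusted p = 0.6) and turned to 0.12 (adjusted p = 0.0348) without that library.

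Among members of exocytosis and regulated secretion, none rose, RAB3B, RAB3C, RAB3D, RAB10, RAB27A and RAB37 fell, and 5 of 11 were not called, where 14.3% of all genes fell. RAB3B, RAB3C and RAB37 passed the filter through the parental group alone, and of the 8 members above it in all 6 libraries 3 fell, where 12.7% of such genes fell. The RAB3 genes are known from the release of synaptic vesicles and secretory granules. RAB3B (chromosome 1, 51907956 to 51990764) fell from 260, 261 and 134 reads, or 4.55, 4.37 and 2.36 CPM, to 6, 7 and 6 reads (-5.06, SE 0.37, adjusted p = 0.000286). RAB3C was at 185 and 192 reads in parental replicates 1 and 2, at 23 in parental replicate 3, and at 9, 4 and 14 in the knockout (-3.86, SE 0.89, adjusted p = 0.0219). RAB3D, the member of exocrine secretion, fell from 22.9, 23.8 and 32.0 CPM to 16.8, 16.1 and 16.2 CPM (-0.68, adjusted p = 0.0213). RAB3A was highest in parental replicate 3, at 9.88 CPM against 4.01 and 3.60 CPM in the other parental and 3.48 to 4.10 CPM in the knockout libraries (-0.65, adjusted p = 0.298). RAB3D and RAB3A thus made up most of the group per length in both conditions, with RAB3D at 62.4 ± 5.66% and 64.2 ± 1.5%.

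RAB37, of secretory granules, fell from 83, 80 and 67 reads to 5, 6 and 5 reads (-3.80, SE 0.24, adjusted p = 0.000177). RAB26, also of secretory granules, stood at 3.27 and 2.71 CPM in 2 parental libraries and 12.3 CPM in parental replicate 3, with 1.29 to 1.97 CPM in the knockout. The groups did not overlap, but it was not called (-1.94, adjusted p = 0.066), and without that library it changed by -0.96 (adjusted p = 0.000794). RAB8A, which carries cargo to the plasma membrane and the primary cilium, stood at 77.9, 76.8 and 129 CPM in the parental and 64.0 to 67.4 CPM in the knockout libraries (-0.52, adjusted p = 0.133). RAB8B moved the other way in parental replicate 3, at 34.3, 30.0 and 21.0 CPM, and was 27.1 to 30.4 CPM in the knockout (0.02, adjusted p = 0.949). Without that library RAB8B fell by 0.20 on the log2 scale (adjusted p = 0.0204). RAB13, a Rab of tight junction traffic, was 9.51, 10.6 and 9.27 CPM in the knockout against 6.27, 7.25 and 9.48 CPM in the parental libraries (0.35, adjusted p = 0.216). Without parental replicate 3, RAB13 rose by 0.48 (adjusted p = 0.0011).

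Of the cilium and remaining members, RAB40C fell (-0.50, adjusted p = 0.0402), and RAB23, RAB28 and RAB40B were not called. RAB23, a regulator of Hedgehog signalling, differed by 0.18 (adjusted p = 0.361). The heat map of all tested members by role shows the 6 libraries side by side. The 7 untested members RAB1C, RAB6C, RAB6D, RAB39B, RAB40A, RAB41 and RAB44 had at most 8 reads in any library, and RAB1C had none. RAB44 was the untested member with reads in every library, with 3, 4 and 2 knockout reads against 6, 8 and 6 parental ones. These reads were too few to test.

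**Figure D4:**
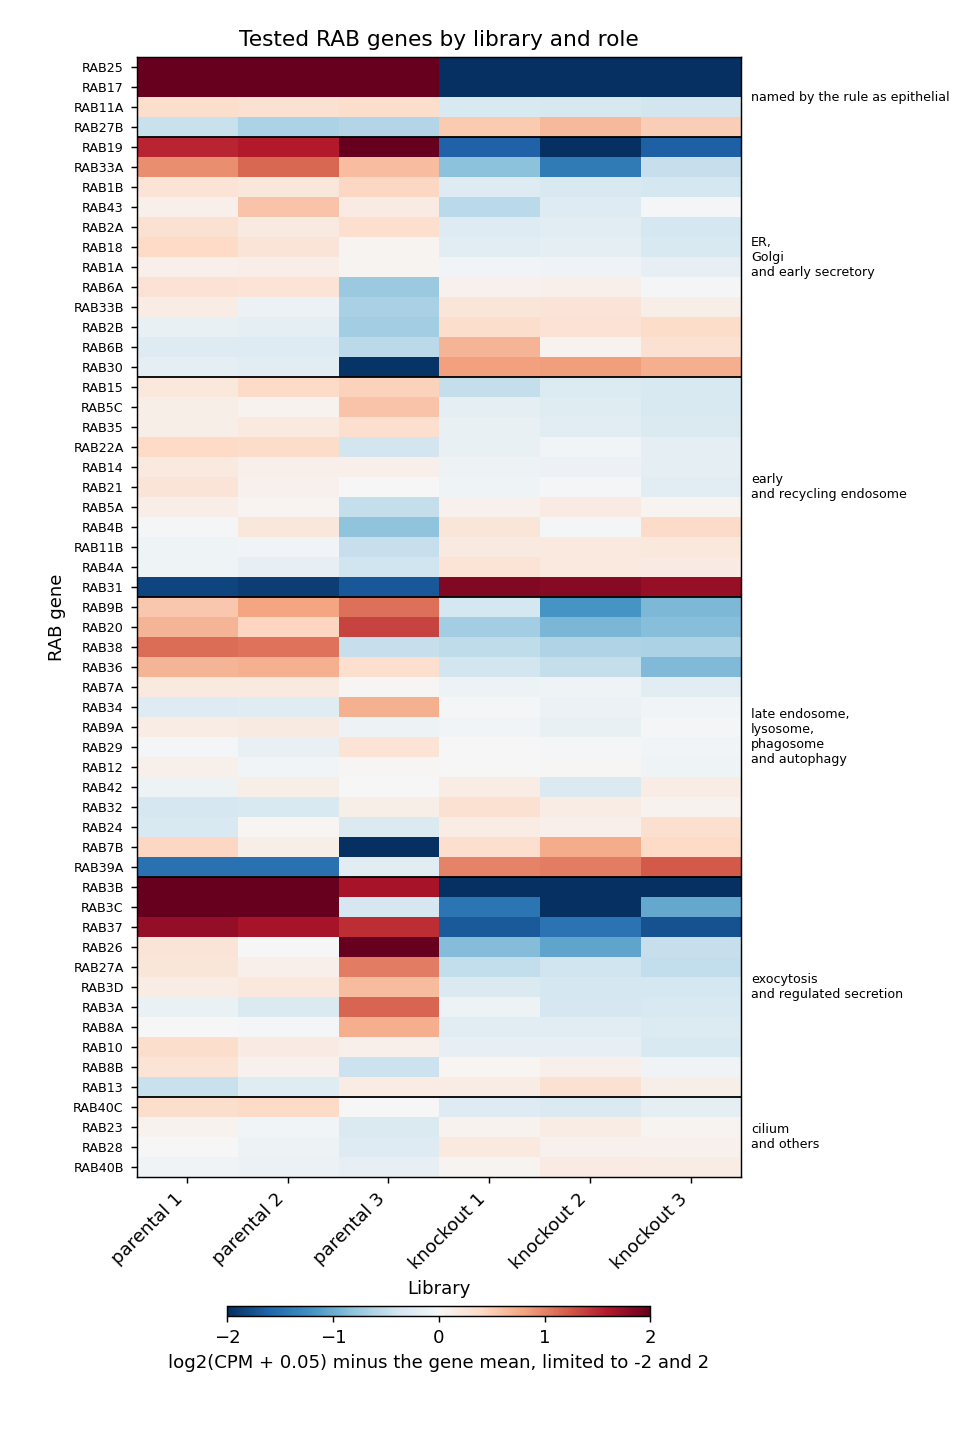
Heat map of log2(CPM + 0.05) minus the mean of each gene over 6 libraries for the 56 tested RAB genes, grouped by role, colours limited to -2 and 2. RAB25, RAB17, RAB31, RAB3B and RAB37 separate the groups, while RAB38, RAB3C, RAB30, RAB26 and RAB34 have parental replicate 3 apart from parental replicates 1 and 2.

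Of 119 tested Rab regulators and effectors, 11 rose, 24 fell and 84 were not called (15 rose and 21 fell with upper-quartile factors), where 27.6% of all genes were called, and the median was -0.10. Without parental replicate 3, 28 of 120 rose and 61 fell, where 30.8% of all genes went each way. In the prenylation and GDI cycle 1 of 7 rose and 1 fell. Among exchange factors 5 of 33 rose and 5 fell. Among TBC-domain proteins 1 of 34 rose and 5 fell, and among effectors 4 of 45 rose and 13 fell. Of all genes tested, 13.3% rose and 14.3% fell. Of the 42 effectors above the filter in all 6 libraries, 4 rose and 11 fell, where 12.7% of such genes went each way.

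The 5 largest falls among these genes, taken where the mean level reached 5 CPM, were all in effectors, of the RAB27, RAB3 and RAB11 groups. SYTL1, a RAB27 effector, fell from 60.6 ± 15.8 to 2.79 ± 0.235 CPM (-4.44, adjusted p = 0.000112). EXPH5, another RAB27 effector, fell from 30.8 ± 6.82 to 4.55 ± 0.142 CPM (-2.76, adjusted p = 0.000222). RPH3AL, which binds RAB3 and RAB27 proteins, fell from 54.7 ± 6.55 to 8.92 ± 0.1403 CPM (-2.62, adjusted p = 6.91e-05). RAB11FIP4, a RAB11 effector, changed by -3.31 (adjusted p = 0.000132). The other RAB11FIP genes listed went both ways: RAB11FIP1 fell, RAB11FIP2 and RAB11FIP3 rose, and RAB11FIP5 was not called. MYO5B, the myosin motor that binds RAB11A and RAB25, fell from 123 ± 31.1 to 18.8 ± 0.659 CPM (-2.72, adjusted p = 0.00037).

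The 5 largest rises at that level were in 4 regulators and in LRRK2, listed as an effector. DENND5B and DENND5A, of the DENN family whose members include exchange factors of RAB39, rose from 16.2 ± 3.36 to 65.3 ± 4.06 CPM (2.01, adjusted p = 0.000594) and from 23.1 ± 2.1 to 68.7 ± 1.7 CPM (1.57, adjusted p = 0.000205). LRRK2, a kinase that phosphorylates RAB8A, RAB10 and other members, rose from 4.87 ± 0.839 to 11.3 ± 0.763 CPM (1.22, adjusted p = 0.00313). TBC1D5, which acts on RAB7A with retromer, changed by 1.16 (adjusted p = 0.000659). CHML, an escort protein that presents new Rabs for prenylation, changed by 0.92 (adjusted p = 0.00438). Direction and call of these 5 largest rises and of the 5 largest falls were the same in the 14 fits.

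Reads placed at several positions stand in a class of their own in the files, so members with close copies, such as RAB6A with RAB6C and RAB6D, can be undercounted. Of the 63 members, 30 overlap exons of some other gene, and RAB23 (57.7%, with BAG2 on the opposite strand) and RAB43 (79.3%, with the readthrough gene ISY1-RAB43) share more than 50%. RAB1B shares 42.6%, with AP001107.1 and AP001107.2 on the opposite strand, and RAB8A shares 41.7%. The strand setting of the counting is not given in the sources used here, so reads of such overlaps cannot be told apart. RAB25 and RAB31 share no exon bases with another gene, and RAB17 shares 1.55%.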

How the data were processed

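RNA-seq was measured in 3 SMARCA4 knockout and 3 parental libraries of H2122. Each deposited file lists raw counts of reads by symbol. The submitters' processing notes name TopHat2 2.1.1 and HTSeq 0.11.0 with build hg38. Neither the annotation release nor the strand setting is given in the sources used here. The 5 classes of unassigned reads (13.8% to 15.3% of reads) were left out.

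Counts were filtered with filterByExpr (at least 10 reads, or 0.173 CPM, in 3 libraries), scaled by TMM and tested two-sided with edgeR 4.0.16 (robust quasi-likelihood) in R 4.3.3, with Benjamini-Hochberg adjustment over 17809 genes and group as the only term. Standard errors were derived from the F value. The fit was tested on simulated data. Alternatives were RLE and upper-quartile factors, other filters, DESeq2 1.42.0, limma-voom (limma 3.58.1), the replicate number as a block and each library left out. Positions and exon unions are from GENCODE 29 (GRCh38), and promoters from RefSeq. Every member could be named. Regulators and effectors were given with values for up to 5 per direction with the largest called change, whose mean reached 5 CPM without group overlap. The other RAB11FIP genes were named by call only. Members and lists were chosen with earlier results of these data known. Protein sequences were not used here.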

Additional observations from a re-analysis of the deposited data

How the results depend on the processing

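The members outside the 4 named ones had 21 calls. This count ranged from 8 to 40 with single libraries left out, that of all genes from 2692 to 11325 (4912 with all libraries), that of regulators and effectors from 20 to 89 (35), and that of mesenchymal markers from 3 to 7 (5). Deviations from the group means correlated at -0.05, -4.24e-05 and -0.07 between libraries of the same replicate number. Parental replicate 3 stood apart and weighs on all parental deviations, so these values cannot exclude a pairing. With the replicate block, 3040 genes, 8 members (1 of the 5 housekeeping falls among them) and 23 regulators and effectors were called. DESeq2 called 29 of the 52 members and 5990 of the 17809 genes. The RAB11A difference of -0.67, given with no test, was -0.72 with RLE factors, -0.62 with upper-quartile factors, -0.73 with no low-count filter and -0.72 with DESeq2. Without length scaling the share of RAB25 in the RAB11 group was 27.4% in parental and 0.226% in knockout libraries. Signs turned for members not called with all 6 libraries, of which RAB6A, RAB8B and RAB34 were called with the turned sign without parental replicate 3. With RLE factors, no low-count filter and DESeq2, RAB6A was -0.0094, -0.025 and -0.0094, RAB8B -0.033, -0.047 and -0.033, and RAB42 -0.040, -0.051 and -0.040; RAB42 was -0.000776 with limma-voom. With single libraries left out, RAB5A ranged from -0.037 to 0.29, RAB6A from -0.27 to 0.20, RAB8B from -0.20 to 0.17, RAB29 from -0.15 to 0.019, RAB34 from -0.39 to 0.12 and RAB42 from -0.057 to 0.16. The cause was not tested. No member called with all 6 libraries changed sign in the fits run. Depth limits members with few reads, such as RAB9B, RAB19, RAB33A and RAB39A.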
